A study of Mus musculus with 6 samples.

Results

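Protocadherins are a large family of cell-surface adhesion proteins, and they were followed here in an obstructed mouse kidney and its untied partner. Members were all non-control probes of the array whose gene name in the deposited tables begins with Pcdh. That gave 72 probes for 44 gene names, out of 41174 probes and 27745 gene names in all. Of these, 45 probes for 31 names belong to the clustered genes (Pcdha, Pcdhb and Pcdhg) and 27 probes for 13 names to the non-clustered genes. Unilateral ureteral obstruction, a model of renal fibrosis, was made by tying the left ureter of 3 CD-1 mice, numbered 495, 485 and 512, and each kidney was hybridised to its own single-colour Agilent array. The ligated group holds the 3 left kidneys and the contralateral group the 3 right kidneys of the same animals. CD-1 is an outbred stock, the age of the mice and the time after ligation are not given in the sources used here, and the labels call the material both kidney and primary cells. The contralateral kidney comes from an operated animal, and no kidney of an unoperated mouse was analysed here.

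The clustered protocadherins lie side by side on chromosome 18 in the alpha, beta and gamma families. In the alpha and gamma families each variable exon has its own promoter and is spliced to constant exons that all transcripts of the family share, whereas beta genes have no constant exons. A neuron switches on a few of these promoters, with the help of CTCF and cohesin, and the surface combination lets its branches recognise one another. The non-clustered protocadherins are scattered over the genome and take part in cell adhesion, migration and tissue boundaries, and most of both groups is best known from the nervous system.

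The 6 arrays differed in brightness. The 75th percentile of the processed signal, an intensity that the scanner software had corrected for background, was 671.2 to 1105.1 on the contralateral arrays and 1067.7 to 1432.8 on the ligated arrays. The share of probes above background ran from 65.3% to 69.0% in contralateral and from 71.6% to 74.2% in ligated kidneys. Each array was therefore scaled to its own 75th percentile, and every log2 change below is the ligated minus the contralateral scaled value. The standard error given with it is limma's, which combines a probe's spread over 3 within-mouse differences with the variance of all tested probes. Mice 495 and 485 shared slide 1, and mouse 512, whose contralateral array was the brightest of its group, was on slide 2. As a check on the tissue, 6 of 6 proximal tubule markers were measured above background. Of them 5 were called lower in the ligated kidney, beside 14.9% of all tested probes.

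Sequences are shown for 6 of the non-clustered probes that rose or fell, and for a Pcdh17 probe that was not tested, so that the measured stretch of each transcript can be found again. Each line holds the first 30 of the probe's 60 bases, 5′ to 3′ and in the sense of the given strand, as the deposited tables list them on the mm8 build. No annotation of that build was used here, so exon or UTR position is not given. No bases are capitalised, because no motif was searched.
Pcdh17, plus strand, chr14:83342078-83342137: tccaagctacaccaaacattaacccatatt
Pcdh17, plus strand, chr14:83344921-83344980: ctagacaaacttatacttatggcaaacaac
Pcdh17, not tested, plus strand, chr14:83285927-83285986: aagaggttctgattttaatgaaagtgtcct
Pcdh7, plus strand, chr5:58017199-58017258: aagttccattgcatgagaccttttagttgt
Pcdh8, minus strand, chr14:78501076-78501135: aatgtgttggaattgctcattgggatttta
Pcdh19, minus strand, chrX:128934167-128934226: agagctttccctaaatgtattgtgtataag
Pcdh21, minus strand, chr14:35989442-35989501: tgtaataatcttgaggagggatatcctgca

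The clustered genes, where measurable, were mostly higher in the ligated kidney, while the non-clustered genes went both ways or were not seen. Of the 45 clustered probes, 35 were above background in the 3 kidneys of either group and could be tested. Of those, 24 rose and 0 fell at an adjusted p under 0.05 (limma, Benjamini-Hochberg over 29093 probes), against 15.3% of all tested probes called higher and 14.9% called lower. At an unadjusted p under 0.05 the count of falls was still 0. Of the 27 non-clustered probes 10 were tested, and 6 rose and 3 fell. The median log2 change was 1.45 over all 45 clustered probes and -0.07 over all 27 non-clustered probes, beside -0.19 over all 41150 probes with usable spots. The non-clustered median includes 13 probes that were above background on no array. Over tested probes alone, which the filter selects, the medians were 1.54 and 0.92, beside -0.02 over all 29093. The difference between the clustered and the non-clustered group was described and not tested. Without mouse 495 or mouse 485 the same fit called 0 probes on the whole array (limma; 7230 and 7457 at an unadjusted p under 0.05), with 22 clustered and 8 non-clustered probes at that unadjusted level each time. In these samples, more cells of a type and more RNA per cell cannot be told apart.

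The filter bears on these counts, because a probe that was dark in 1 kidney could enter only through the other. With no filter, 17 of 45 clustered probes rose and 0 fell (limma; 1 at an unadjusted p under 0.05), where 6.26% of 41150 probes were called higher and 3.86% lower. Among the 21 clustered probes above background on all 6 arrays, 15 rose, where 13.3% of 25528 probes were called higher. With normexp background correction, which here includes an offset of 50 added to each signal and quantile normalization, 14 of 35 clustered probes rose. In that setting 3992 of 29093 probes were called higher. Quantile normalization alone gave 19 clustered rises, where 3646 of 29093 probes were called higher. Of the non-clustered probes 4 rose and 3 fell with no filter. These falls were both Pcdh17 probes and a Pcdh11x probe (A_52_P470605) that was above background on no array, while Pcdh7 did not pass (limma adjusted p = 0.0708). In the filtered fit, 4 rose and 0 fell with arrays centred on spike-in spots (limma; 8 at an unadjusted p under 0.05, rises and falls together). Groups that did not overlap, ligated higher, were seen for 31 of 45 clustered probes, against 18.4% of all 41150 probes, and ligated lower for 2 of 45, against 34.3%. For the 27 non-clustered probes these counts were 7 and 12. All these counts and shares were taken with no filter and include dark probes, whose sign carries the scaling, as described below.

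**Figure D1:**
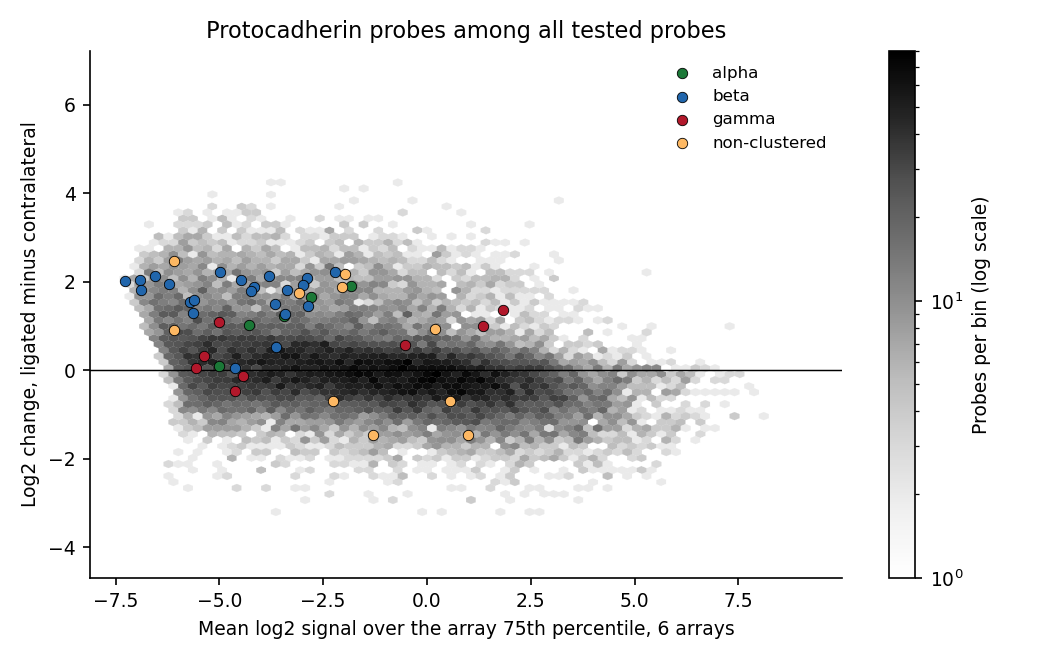
Mean log2 signal relative to the array's 75th percentile over 6 arrays (horizontal) against the log2 change, ligated minus contralateral (vertical), for all 29093 tested probes in grey bins with a log colour scale, with the tested protocadherin probes in colour by family. The beta probes lie above 0 across their range of signal, while non-clustered probes lie on both sides.

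The beta family made up most of the clustered rises. Of its 29 probes for 22 genes 22 were tested, and 18 probes for 15 genes rose: Pcdhb3, Pcdhb4, Pcdhb5, Pcdhb6, Pcdhb7, Pcdhb9, Pcdhb10, Pcdhb12, Pcdhb13, Pcdhb14, Pcdhb15, Pcdhb16, Pcdhb17, Pcdhb20 and Pcdhb21. Their log2 changes ran from 1.26 to 2.22, with limma adjusted p between 0.0222 and 0.0410, and the median over all 29 beta probes was 1.79. Of all tested probes, 15.3% were called higher. Of the 18 beta probes that rose, 7 were above background on all 6 arrays, and the others passed the filter only through the ligated group. With the filter for all 6 arrays 8 of 10 beta probes rose, where 13.3% of 25528 probes were called higher. With normexp background correction 11 of 22 rose, where 3992 of 29093 probes were called higher. With no filter 16 of 29 rose, where 6.26% of 41150 probes were called higher. The changes were also smaller with normexp, with a median of 0.58 over the 22 tested beta probes against 1.85. Single values were 0.73 for Pcdhb3, 0.26 for Pcdhb10 and 1.56 for Pcdhb21. Quantile normalization alone gave a beta median of 1.58 and 16 rises, where 3646 of 29093 probes were called higher. The normexp offset of 50 is above every Pcdhb10 signal, and its part in the smaller changes was not tested.

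Pcdhb21 had the highest mean among beta probes over the 6 arrays. Its contralateral signals were 81.0, 36.2 and 190.2, in the order of mice 495, 485 and 512 that is kept throughout, and its ligated signals were 675.5, 619.6 and 502.7. The groups stood well apart, and the log2 change was 2.21 ± 0.34 (limma adjusted p = 0.0277). Pcdhb14 read 52.2, 40.3 and 150.5 in contralateral and 287.1, 286.9 and 297.0 in ligated kidneys, a log2 change of 1.45 ± 0.20 (limma adjusted p = 0.0258). The unscaled signals of the 3 ligated kidneys were nearly alike for this gene, while their scaled log2 values were -2.25, -2.32 and -1.85. The contralateral kidney of mouse 512 was the highest of its group. One of the Pcdhb17 probes (A_51_P337771) gave 42.2, 24.0 and 155.6 against 388.1, 361.8 and 326.6, with a log2 change of 2.09 ± 0.38. A second Pcdhb17 probe, above background on 2 of 3 contralateral arrays, rose by 1.79 ± 0.35. The Pcdhb16 probes rose by 2.03 ± 0.27, with 1 contralateral array above background, and by 1.88 ± 0.22, so both probes of each of these genes rose.

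Several of the largest beta rises began at or near background. Pcdhb3 read 13.2, 3.84 and 34.8 in contralateral and 99.4, 83.7 and 80.5 in ligated kidneys, the largest change of the family at 2.22 ± 0.45 (limma adjusted p = 0.0359). The contralateral kidney of mouse 485 was below background for it, so the rise is at least 3.24-fold. Pcdhb7 read 23.8, 12.2 and 76.1 against 215.8, 183.2 and 172.9 (2.12 ± 0.35), with mouse 485 again below background. Pcdhb10 was above background on no contralateral array, at 3.69, 5.99 and 3.37, and on every ligated array, at 31.7, 24.8 and 29.7. Its rise was at least 1.49-fold, a bound that sets each dark array at the lowest signal counted as above background there. The same held for Pcdhb12 (at least 1.75-fold), Pcdhb15 (at least 2.16-fold) and both Pcdhb13 probes (at least 1.11-fold and 1.05-fold). Pcdhb9 also passed the test with no contralateral array above background, but its ligated signals of 14.6 to 18.5 allow no fold. In all, 6 tested clustered probes had no contralateral array above background.

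Other beta probes did not follow. Pcdhb22 had a log2 change of 1.49 ± 0.39 (limma adjusted p = 0.0530) and a Pcdhb19 probe 1.60 ± 0.45 (adjusted p = 0.0620). The Pcdhb18 probe, which the deposited tables assign to Pcdhb17, Pcdhb18 and Pcdhb20 together, read 33.7, 29.7 and 35.2 against 49.9, 68.2 and 44.5, a change of 0.06 ± 0.19 (limma adjusted p = 0.816). Probes for Pcdhb17 and Pcdhb20 alone rose, so the probe that lists all 3 genes differed from the probes that list 1. A second Pcdhb15 probe (A_51_P159835) changed by 0.52 ± 0.38 (limma adjusted p = 0.324), beside 1.54 ± 0.17 for the probe that rose. These Pcdhb15 probes share a run of 20 bases, and A_51_P159835 shares 23 bases with the Pcdhb6 probe, while the Pcdhb5 probe that rose shares 22 with that Pcdhb6 probe. Beyond these, the only pair of 2556 protocadherin probe pairs with a common run of 15 or more bases lay within Pcdhga7. Probes were compared only with one another, so binding of a probe to transcripts of other beta genes was not examined. The 7 untested beta probes were single probes of Pcdhb1, Pcdhb2, Pcdhb5, Pcdhb8, Pcdhb11, Pcdhb12 and Pcdhb19.

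In the alpha family 6 probes stood for Pcdha4, Pcdha6 and Pcdha9. The tables assign 3 of them to several alpha genes at once, among them Pcdhac2, and these lie at least 156.1 kb beyond the other alpha probes, so a value there is not that of 1 gene. One such probe named Pcdha9 (A_52_P404535) read 104.6, 41.0 and 390.7 in contralateral and 930.9, 577.3 and 622.5 in ligated kidneys, a rise of 1.91 ± 0.44 (limma adjusted p = 0.0444). Every ligated kidney was above every contralateral one, and mouse 512 showed the smallest step. The other Pcdha9 probe of this kind rose by 1.22 ± 0.27 (limma adjusted p = 0.0416). The probe of this kind named Pcdha6 read 46.5, 29.7 and 209.9 against 386.5, 327.2 and 273.0, and its change of 1.66 ± 0.45 did not pass (limma adjusted p = 0.0577). Of the alpha probes assigned to at most 1 gene, the Pcdha9 probe rose by 1.03 ± 0.20 (limma adjusted p = 0.0351). The Pcdha6 probe changed by 0.11 ± 0.31, and the Pcdha4 probe was above background only in the ligated kidney of mouse 495. The alpha calls changed with the settings: 3 of 5 tested probes rose here, but 1 did with normexp background correction, 1 without the mouse as a block and 0 with no filter (limma; 5 at an unadjusted p under 0.05).

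The gamma family divided by the kind of probe. Of 10 probes 8 were tested and 3 rose, and the median log2 change over all 10 was 0.44. The 3 probes named Pcdhga7 that are assigned to several gamma genes lie within 1.71 kb of each other, at least 70.2 kb beyond the rest. The first (A_51_P474518) read 1625, 1085 and 3492 in contralateral and 8821, 7616 and 5879 in ligated kidneys, and rose by 1.36 ± 0.24 (limma adjusted p = 0.0311). The next (A_51_P470769) overlaps it by 40 bases, so it is no independent measurement, and went from 1452, 871 and 2537 to 5447, 4752 and 3698, a rise of 0.99 ± 0.20 (limma adjusted p = 0.0370). The last (A_52_P667913) read 391, 288 and 898 against 1012, 833 and 1456, a change of 0.56 ± 0.15 that did not pass (limma adjusted p = 0.0560). All 3 were bright in both kidneys of every mouse, and in each the contralateral kidney of mouse 512 was the highest of its group.

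Gamma probes assigned to at most 1 gene were dim. Their median log2 change was 0.05 over 7 probes, beside 0.99 over the 3 probes assigned to several genes. The difference between the kinds was not tested, and the Pcdhgb4 probe was the only one of the 5 tested to rise. It read 16.8, 9.85 and 32.5 in contralateral and 77.3, 58.8 and 44.2 in ligated kidneys, a rise of at least 2.045-fold with mouse 485 below background on the contralateral side (limma adjusted p = 0.0436). The groups did not overlap, though mouse 512 contributed the smallest difference. The Pcdhga7 probe assigned to 1 gene (A_51_P405358) read 29.8, 28.4 and 72.9 against 49.3, 53.9 and 32.6, a change of -0.48 ± 0.26 (limma adjusted p = 0.206). Its unscaled groups overlapped, while every scaled ligated value lay below every contralateral one. The Pcdhga4 probe read 36.7, 36.7 and 45.8 against 56.7, 65.2 and 49.2, a scaled change of -0.12 ± 0.16, which was 0.20 when arrays were centred on spike-in spots. These were the only negative changes among the 35 tested clustered probes. Pcdhga1 changed by 0.31 ± 0.15 and Pcdhga9 by 0.05 ± 0.23. A second Pcdhga4 probe was not tested and Pcdhga12 was above background on no array.

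**Figure D2:**
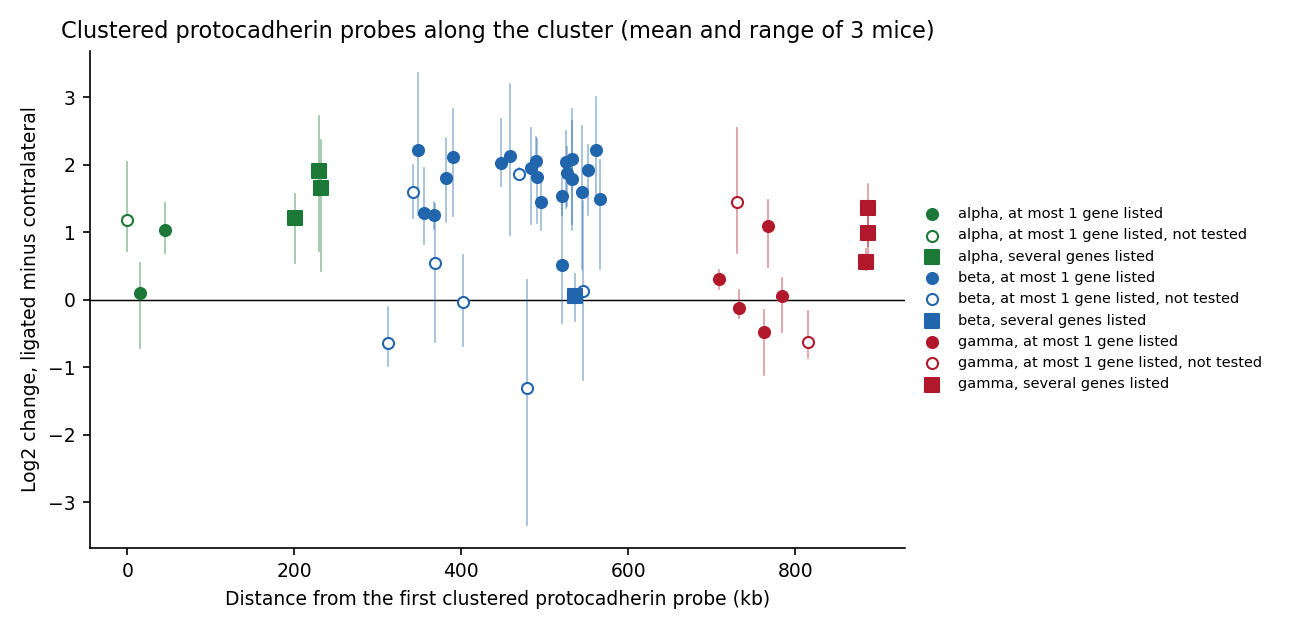
Log2 change, ligated minus contralateral, of each clustered probe (vertical) by its distance in kb from the first clustered probe (horizontal), with the mean as a point and the range over 3 mice as a line; squares are probes assigned to several genes and open symbols were not tested. Squares of the alpha family sit beyond its circles, as in the gamma family, and the raised beta probes fill the stretch between.

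The size of the clustered rises differed between mice. The median within-mouse difference over all 45 clustered probes came to 1.56 for mouse 495, 1.71 for mouse 485 and 0.80 for mouse 512. Of the 24 probes that rose, 20 had their smallest difference in mouse 512, and for 20 the contralateral kidney of mouse 512 was above both other contralateral kidneys. In an unpaired fit without that kidney 27 of 35 clustered probes were called, beside 15938 of 29093 probes on the whole array. In the paired fit without mouse 512, which is slide 1 alone, 30 of 38 were, beside 15960 of 29992. The paired fit of all 6 arrays called 24 of 35, beside 8779 of 29093, so calls rose over the whole array as well. Slide 2 holds 1 pair and gives no test of its own.

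**Figure D3:**
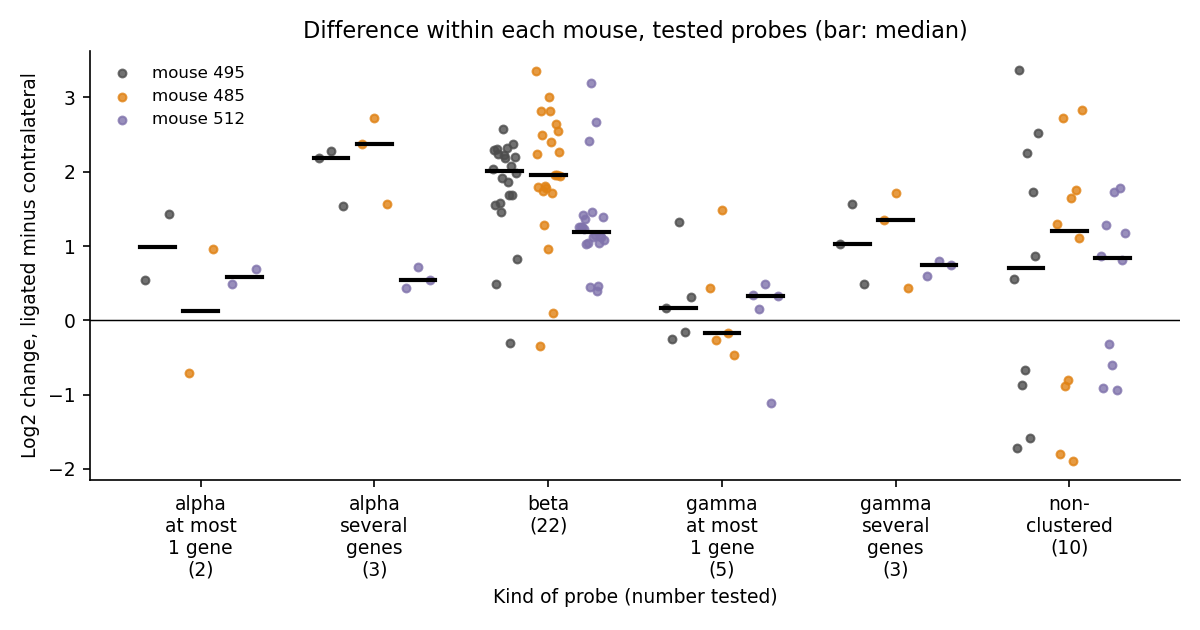
Log2 difference between the kidneys of each mouse (vertical) for tested probes grouped by kind (horizontal, number tested in brackets), with 1 point per probe and mouse and a bar at the median. Mouse 512 has the smallest median for beta probes (1.19, against 2.01 and 1.95 in mice 495 and 485) and for alpha and gamma probes assigned to several genes. For alpha and gamma probes assigned to at most 1 gene, mouse 485 has the smallest median (0.125 and -0.171).

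Among the non-clustered genes, Pcdh8, Pcdh18, Pcdh19, Pcdh12 and Pcdh21 rose. Pcdh8, also called paraxial protocadherin, is known from somite formation and from synapses. It read 59.0, 109.3 and 170.9 in contralateral and 516, 731.5 and 544 in ligated kidneys, and rose by 1.87 ± 0.19 (limma adjusted p = 0.0222). Pcdh18, a member of the delta protocadherins, went from 91.5, 45.4 and 223 to 963, 687 and 487, a rise of 2.17 ± 0.38 (limma adjusted p = 0.0308). For both genes every ligated kidney stood above every contralateral kidney, and for Pcdh18 mouse 512 had the highest contralateral value. Pcdh19, an X-linked gene whose loss causes an epilepsy in humans, read 66.0, 31.3 and 71.2 against 402, 226 and 236.5, a rise of 1.76 ± 0.13 (limma adjusted p = 0.0222). A second Pcdh19 probe was above background on 2 ligated arrays alone and was not tested.

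Pcdh12, a vascular endothelial protocadherin, read 701.6, 463.5 and 951 in contralateral and 2350, 2126 and 1620 in ligated kidneys on its brighter probe. It rose by 0.93 ± 0.15 (limma adjusted p = 0.0284), with the ligated kidneys well clear of the others. A dimmer Pcdh12 probe was above background on no contralateral array and rose at least 1.34-fold (limma adjusted p = 0.0415), but its change was 0.08 with normexp background correction (adjusted p = 0.551). Of 6 endothelial markers 4 were called higher, beside 15.3% of all tested probes. Tek did not pass (limma adjusted p = 0.173), nor did Kdr, with a change of -0.015 (limma adjusted p = 0.968). The summed level of the list, in units of the array's 75th percentile, was 7.84 to 11.0 in contralateral and 13.2 to 15.6 in ligated kidneys. The part of these markers in the Pcdh12 rise was not tested. Pcdh21, now named Cdhr1 and known from photoreceptors, read 2.88, 2.85 and 16.2 against 54.5, 40.4 and 38.1. No contralateral array was above background for it, and its rise was at least 2.18-fold (fitted log2 change 2.46 ± 0.45, limma adjusted p = 0.0323). With normexp background correction the fitted change was 0.42 (limma adjusted p = 0.0498).

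Pcdh17 and Pcdh7 fell. The brighter Pcdh17 probe, starting at chr14:83342078-83342137 above, read 2338, 3885 and 2154 in contralateral and 1436, 2235 and 1085 in ligated kidneys. The signal itself was lower in the ligated kidney of every mouse, and the scaled change was -1.47 ± 0.24 (limma adjusted p = 0.0288). A second probe, which starts 59.0 kb after the third one listed, gave 513, 754 and 450 against 287, 461 and 232, with the same change of -1.47 ± 0.24 (limma adjusted p = 0.0291). The third Pcdh17 probe, 56.2 kb before the brighter probe, was dim, above background on 1 contralateral and 2 ligated arrays, and was not tested. With arrays centred on the spike-in spots the 2 tested probes changed by -1.15 and did not pass (limma adjusted p = 0.0863 and 0.0849).

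The Pcdh7 decrease rests on the scaling. Its signal was 209, 203.5 and 240 in contralateral and 241, 248 and 154 in ligated kidneys, so the unscaled groups overlapped. After scaling it fell by 0.69 on the log2 scale (SE 0.14, limma adjusted p = 0.0365), and the change was -0.37 with spike-in centring (limma adjusted p = 0.634). Pcdh1, a protocadherin of epithelia, read 1497, 1359 and 1781 against 1496, 1573 and 1385. Its unscaled groups overlapped as well, and its scaled change of -0.69 ± 0.19 did not pass (limma adjusted p = 0.0577). Over 17 settings, this one included, Pcdh1 was called lower in 9 and Pcdh7 in 13. Proximal tubule markers were lower too, with 5 of 6 called lower, beside 14.9% of all tested probes. The summed level of these markers was 125.1 to 721.1 in contralateral and 46.2 to 87.7 in ligated kidneys. Their part in the Pcdh17 and Pcdh7 values was not tested.

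**Figure D4:**
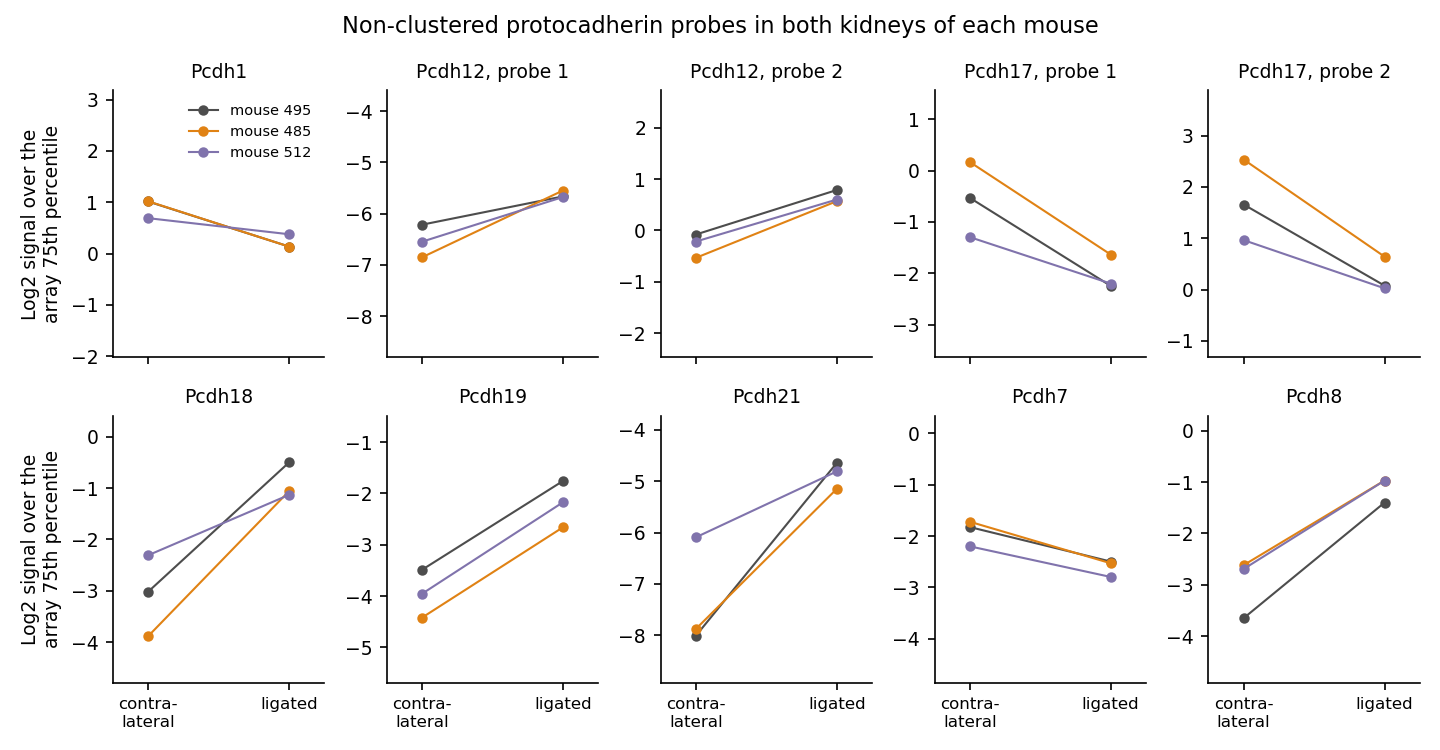
Log2 signal relative to the array's 75th percentile (vertical) in the contralateral and ligated kidney of each mouse, joined by a line, for the 10 tested non-clustered probes; all panels span the same height. Lines climb for Pcdh8, Pcdh12, Pcdh18, Pcdh19 and Pcdh21 and descend for Pcdh1, Pcdh7 and Pcdh17.

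The remaining non-clustered genes gave little or no signal. No probe of Pcdh9 (5 probes), Pcdh10 (4 probes), Pcdh11x (3 probes), Pcdh15 (2 probes) or Pcdh20 (1 probe) could be tested. Pcdh15 forms part of the tip link of inner-ear hair cells, and Pcdh10 is a delta protocadherin of the brain. With the second Pcdh19 probe these made 16 probes of 6 genes, with signals between 2.36 and 77.5, and 3 of the 16 were above background on some array. The highest was a Pcdh9 probe (A_52_P197199) at 13.6, 3.98 and 12.4 in contralateral and 28.9, 12.3 and 77.5 in ligated kidneys, above background in the ligated kidneys of mice 495 and 512. In all, 13 non-clustered and 5 clustered probes were above background on no array.

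Such dark probes carry the scaling in their sign. For 7 protocadherin probes the signal stayed between 2.36 and 3.59 on all arrays, and after scaling all 7 had ligated values below the contralateral ones, with changes of -0.68 to -0.63. The ligated arrays' 75th percentiles exceeded the contralateral ones by 0.88 and 1.09 on the log2 scale in mice 495 and 485, and differed by -0.05 in mouse 512. Such values were read as no signal, not as decreases.

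Cell type marker lists differed in how many genes were called higher, where 15.3% of all tested probes were. Fibroblast and pericyte markers were called higher for 6 of 7 genes, and their summed level went from a range of 6.63 to 49.0 in contralateral kidneys, highest in mouse 512, to 104.2 to 208.5. Macrophage markers rose for 4 of 4 genes, from 2.82 to 4.19 up to 13.7 to 16.2. Of 9 neuron and Schwann cell markers 7 were tested and 1 rose, Elavl4, which was above background on 1 contralateral array. Snap25 was above background on no array, and the summed level of the list was 0.515 to 0.628 against 0.555 to 0.857. Podocyte markers were called higher for 1 of 4 genes (1.57 to 2.28 against 3.40 to 4.17) and T cell markers for 1 of 4 (0.263 to 0.329 against 0.576 to 1.15). Of 4 urothelium markers 1 was tested and 0 passed (limma; 0 at an unadjusted p under 0.05), at 0.0608 to 0.113 against 0.0468 to 0.368. The part of these cell types in the protocadherin values was not tested.

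A few genes that work with protocadherins inside the cell were called, in both directions. Of 13 genes for promoter choice and silencing, all tested, 2 rose and 0 fell, with 4 at an unadjusted p under 0.05 (limma). Of all tested probes, 15.3% were called higher and 14.9% lower. Dnmt3b, a DNA methyltransferase that marks clustered promoters, read 46.0, 31.1 and 145.2 in contralateral and 211.1, 253.5 and 222.0 in ligated kidneys, a rise of 1.30 ± 0.29 (limma adjusted p = 0.0409). Dnmt3a rose by 0.65 ± 0.15 (limma adjusted p = 0.0424). Ctcf, which loops chosen promoters to their enhancers, changed by 0.17 ± 0.14 and did not pass. Of 14 cytoplasmic partners and processing genes 2 rose and 3 fell, beside the same shares of all tested probes. Nckap1, a part of the WAVE complex, fell by 0.73 on the log2 scale (SE 0.14, limma adjusted p = 0.0330). The kinase Fyn rose by 0.89 ± 0.13 (limma adjusted p = 0.0277). Over all partner lists, including the cadherin families described at the end, 13 of 40 tested genes were called, beside 30.2% of all tested probes.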

How the data were processed

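Total RNA was labelled with Cy3 and hybridised to Agilent mouse arrays (design 014868), per the labels' protocols. The deposited processed signal is a linear intensity, background-subtracted and detrended within the array and unscaled between arrays, per the file headers. The headers give Feature Extraction 10.5.1.1 and the submitters' processing notes 9.1, which was not resolved. Deposited flags (well above background, saturated, outlier) are 0 or 1. The deposited value table holds a linear ratio of the processed signal to the array's median and served as an alternative. No spot was saturated (0 on each array). The number of arrays limits the precision.

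Control spots were dropped, which left 43379 spots per array. Each array's 75th percentile was subtracted from its log2 signals, and spots of one probe were averaged. Spots with an outlier flag were left out of the average, and 24 probes with no unflagged spot on some array were dropped. A probe counted as above background from a share of 0.5 of its spots upward. Probes above background throughout either group of 3 arrays entered a two-sided test with limma 3.58.1 under R 4.3.3 (lmFit, eBayes, mouse as fixed block, 2 residual and 2.13 prior degrees of freedom, Benjamini-Hochberg). A call is an adjusted p under 0.05. The fit was tested on simulated data. Pairing comes from the mouse numbers, and deviations from the group means correlated within mice (r = 0.202, 0.474 and 0.279 for mice 495, 485 and 512). P-values set the mean within-mouse difference against limma's standard error. That error combines the spread over these 3 animals with the variance of all tested probes. Bounds written "at least" replace a dark array's value by the lowest one above background on that array, unless its own is higher. Partner and marker genes are represented by their probe with the highest mean, under current RefSeq symbols.

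Members and lists were chosen with earlier results of these data known. Named were every non-clustered gene, every called clustered probe, the 8 brightest clustered probes, the 5 largest changes each way, and of each partner list the 3 largest called changes, or else the smallest p. Other names were chosen after their values were seen. A gene and a probe sequence that these rules would name are not reported here.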

Additional observations from a re-analysis of the deposited data

How the results depend on the processing

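The 33 called protocadherin probes kept their direction (30 higher, 3 lower), though not their calls, in each other setting that tested them; 15 of the 33 were tested in every setting. Against 24 clustered and 9 non-clustered calls, fits that left out 1 mouse gave 0 to 30 and 0 to 10, those without mouse 495 or mouse 485 giving 0. All-probe calls (8779) then ran from 0 to 15960 and partner gene calls (13) from 0 to 21. With normexp background correction 14 clustered probes were called, and with the filter for all 6 arrays 15. Spike-in centring gave 4 non-clustered, 4592 all-probe and 3 partner calls, and no filter gave 4165 and 5. The unpaired fit without the contralateral kidney of mouse 512, chosen after seeing the data, gave 15938 and 23. Without the replicate block the unpaired fit called 22 clustered, 10 non-clustered, 7662 all-probe and 11 partner features. Calls split into 4447 higher and 4332 lower, against 3634 and 9017 with median centring and 3677 and 915 with spike-in centring, which moved the median of tested probes from -0.02 to -0.32 and 0.30. Signs turned for 5 uncalled probes, listed for median centring, the deposited table, normexp, quantile and the unpaired fit without that kidney. Pcdha6 (A_51_P324950, 0.11) gave -0.20, -0.20, -0.13, -0.30 and -0.18, and -0.11 to 0.51 with a mouse left out. Pcdhb18 (0.06) gave -0.24, -0.25, -0.086, -0.33 and -0.10, and -0.10 to 0.25. Pcdhga9 (0.05) gave -0.25, -0.25, -0.13, -0.34 and -0.27, and -0.0795 to 0.32. Pcdhga1 gave -0.10 with quantile normalization, and Pcdhga4 (A_51_P131879) 0.20 with spike-in centring. The cause of these changes was not tested.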

Other observations

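Other cadherin families, outside the protocadherin names, were also measured. The brush border of the proximal tubule is held together by protocadherin-related proteins, and 4 of the 5 genes listed for that complex fell and 0 rose (limma, adjusted p under 0.05), where 14.9% of all tested probes were called lower. Cdhr2 read 2480, 1950 and 1304 (mice 495, 485 and 512) on the contralateral side and 616.4, 989.2 and 330.1 on the ligated side, and fell by 2.30 on the log2 scale (SE 0.25, limma adjusted p = 0.0228). Every ligated kidney was below every contralateral one. Its scaffold Ush1c fell by 1.51 (SE 0.27, adjusted p = 0.0313) and its partner Cdhr5 by 1.20 (SE 0.15, adjusted p = 0.0241) in the same limma fit. Proximal tubule markers were lower too, for 5 of 6 genes, and their part in these values was not tested.

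Of 7 Fat and Dachsous cadherin genes, which set tissue growth and planar polarity, 5 were tested. Of these 2 rose and 0 fell (limma; 2 at an unadjusted p under 0.05, both rises), where 15.3% of all tested probes were called higher. Dchs1 read 137.1, 92.8 and 202.7 in contralateral and 824.3, 580.7 and 459.6 in ligated kidneys, a rise of 1.50 ± 0.17 (limma adjusted p = 0.0230). Its receptor partner Fat4 rose at least 2.48-fold, with 1 contralateral array below background (limma adjusted p = 0.0243). Of the 3 seven-pass cadherins 0 passed (limma; 0 at an unadjusted p under 0.05), and Celsr3 had the smallest p, with a change of -0.63 ± 0.24 (limma adjusted p = 0.106).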
